A study of Mus musculus with 3 samples.

Results

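Interferon gamma and the CXCR3 chemokine axis were followed through 6 genes in whole mouse cornea: the chemokines Cxcl9 and Cxcl10, their receptor Cxcr3, the cytokine Ifng, and the receptor chains Ifngr1 and Ifngr2. The 6 were found by Ensembl identifier among the 30406 genes listed for every library. Nuclear RNA was counted in 3 droplet libraries. Corneas were frozen and pooled from 5 mice for each library, at 7 weeks of age. The WT library came from untreated wild-type mice. The KO library came from untreated mice without Aire, the thymic regulator whose loss gives autoimmune dry eye. The KO_PBS library came from Aire knockout mice treated with phosphate-buffered saline for 14 days. The series text gives 6 weeks of age and day 7 of treatment instead. The knockout allele, the strain and the sex of the mice are not given in the sources used here, and an arm treated with lacripep was not analysed here.

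Interferon gamma is made mainly by activated T and NK cells and binds a receptor of an IFNGR1 and an IFNGR2 chain, which signals through JAK kinases. CXCL9 and CXCL10 are chemokines that cells release when they sense interferons. Both draw activated lymphocytes through the receptor CXCR3, and in dry eye this loop is a known route of T cell entry into the ocular surface.

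Cxcl9 (ENSMUSG00000029417) lies at chr5:92321347-92328079 on the minus strand of GRCm38, and Cxcl10 (ENSMUSG00000034855) at chr5:92346638-92348889 on the same strand. Cxcl10 lies inside Art3, a gene on the opposite strand. Art3 had levels of 5.74, 5.44 and 9.64 CPM (UMIs scaled to a library total of 1000000) in WT, KO and KO_PBS, a course unlike that of Cxcl10 given below. The 250 bases before each start site are printed from RefSeq (GRCm38.p6, 5′ to 3′ on the gene's own strand), because both chemokines were near 0 in WT and high in both knockout libraries. The windows are chr5:92328080-92328329 for Cxcl9 and chr5:92348890-92349139 for Cxcl10. Of the motifs searched on both strands 2 are reported here, and capitals mark their matches.
Cxcl9: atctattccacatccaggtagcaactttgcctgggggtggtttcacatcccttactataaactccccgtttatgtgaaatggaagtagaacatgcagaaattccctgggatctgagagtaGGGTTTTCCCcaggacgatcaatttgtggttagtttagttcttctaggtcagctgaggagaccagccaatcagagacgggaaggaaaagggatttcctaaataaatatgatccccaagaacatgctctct
Cxcl10: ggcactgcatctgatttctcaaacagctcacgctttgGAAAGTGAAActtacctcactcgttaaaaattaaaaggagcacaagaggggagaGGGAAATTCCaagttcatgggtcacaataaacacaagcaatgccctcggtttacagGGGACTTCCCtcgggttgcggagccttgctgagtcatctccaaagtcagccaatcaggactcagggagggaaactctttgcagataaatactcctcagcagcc
The motifs were an interferon response element (GAAA, 2 free bases, GAAA) and an NF-kB-type site (GGGA, 4 free bases, CC). The Cxcl9 window held 1 match, of the NF-kB type and on the opposite strand, from -130 to -121 counted from the start site. The Cxcl10 window held 1 interferon response element from -213 to -204, and NF-kB-type matches from -159 to -150 and from -103 to -94. Among 32851 windows of the same length, 2.98% held the interferon response element and 17.6% the NF-kB-type site. These are matches of letters, not measured binding, and sites that differ from the letters were not searched.

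For WT, KO and KO_PBS the files held 96587, 107031 and 114357 barcodes with 256852883, 352627863 and 178988562 UMIs, and medians of 2261, 2980 and 1432 UMIs per barcode. Aire had 15, 27 and 68 UMIs in that order, so it did not check the labels, and each library is named as it is labelled. KO_PBS stood apart in markers of other eye tissues. Summed photoreceptor markers were at 128 CPM in WT, 47.7 in KO and 1861 in KO_PBS, lens markers at 482, 185 and 7443, and melanocyte markers at 588, 246 and 3713. The Y-linked gene Ddx3y was at 0.211, 0.211 and 5.97. Macrophage markers were at 107, 907 and 894 CPM and T cell markers at 15.5, 210 and 214, so both were higher in the knockout libraries, as the chemokines were. Plasma cell markers, at 9.16, 1244 and 92.8, and keratocyte markers, at 1435, 4605 and 2704, were highest in KO, as Ifngr1 and Cxcr3 were. Their part in the results was not tested. In such summed counts, fewer cells of a type and less RNA per cell cannot be told apart. Of the barcode sequences, 2833 occurred in both WT and KO, 2998 in WT and KO_PBS, and 3379 in KO and KO_PBS.

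All levels are in CPM. With 1 library per group there is no replicate and no test, and every interval is an exact 95% interval of the counting error alone. A gene was counted as higher or lower when the pair of libraries held 50 or more of its UMIs, its levels, with counts under 3 set to 3, differed by a ratio of 2 or more and the Poisson intervals were apart.

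Cxcl9, the chemokine CXCL9, had a level of 0.359 in WT from 92 UMIs, 203 in KO from 71449 UMIs and 290 in KO_PBS from 51612 UMIs. It was thus almost unread in wild-type cornea and abundant in both knockout libraries. The KO level was 566-fold that of WT (461 to 702), a ratio above that of 99.7% of the genes compared. The KO_PBS level was 807-fold that of WT (658 to 1002).

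Cxcl10, the second CXCR3 ligand, was at 0.359 in WT from 92 UMIs, 51.1 in KO from 17941 UMIs and 76.2 in KO_PBS from 13545 UMIs. It was low and high in the same libraries as Cxcl9, with smaller ratios. The KO level was 142-fold (116 to 176) and the KO_PBS level 212-fold (173 to 263) that of WT. UMIs of Cxcl9 per UMI of Cxcl10 were 1.00 in WT (0.741 to 1.35), 3.98 in KO (3.92 to 4.05) and 3.81 in KO_PBS (3.74 to 3.88). This ratio was close in the 2 knockout libraries and lower in the few UMIs of WT.

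Ifng, the cytokine itself (ENSMUSG00000055170, chr10:118441046-118445892, plus strand), had 1 UMI in WT, 453 in KO and 382 in KO_PBS. Its levels were 0.0039, 1.29 and 2.15 in that order. WT was lowest, and its single UMI leaves the ratio loosely fixed, at 330-fold for KO (58.9 to 13062) and 550-fold for KO_PBS (98.1 to 21772). With the WT count set to 3, as in the rule above and in the plot of ratios, they were 110-fold and 183-fold. Gm49751, a gene model on the same strand inside Ifng, is in none of the 3 gene lists.

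Cxcr3, the receptor of both chemokines (ENSMUSG00000050232, chrX:101731535-101734269, minus strand), was at 0.0469 in WT from 12 UMIs, 6.68 in KO from 2346 UMIs and 3.06 in KO_PBS from 544 UMIs. KO was highest and WT lowest. The KO level was 142-fold that of WT (81.4 to 276), and the KO_PBS level was 2.18-fold lower than that of KO (1.99 to 2.40).

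Ifngr1, the chain that binds the cytokine (ENSMUSG00000020009, chr10:19591949-19610229, plus strand), was at 41.4 in WT from 10603 UMIs, 110 in KO from 38721 UMIs and 42.4 in KO_PBS from 7545 UMIs. Only KO was high, while WT and KO_PBS were close. KO was 2.66-fold above WT (2.60 to 2.72), and KO_PBS was 2.60-fold below KO (2.53 to 2.66). Ifngr2, the chain that starts the signal (ENSMUSG00000022965, chr16:91547072-91565623, plus strand), was at 36.0, 37.5 and 39.2 in WT, KO and KO_PBS, from 9223, 13174 and 6971 UMIs. Its largest ratio between libraries was 1.09, so in CPM the 2 chains of the receptor did not share a pattern.

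**Figure D1:**
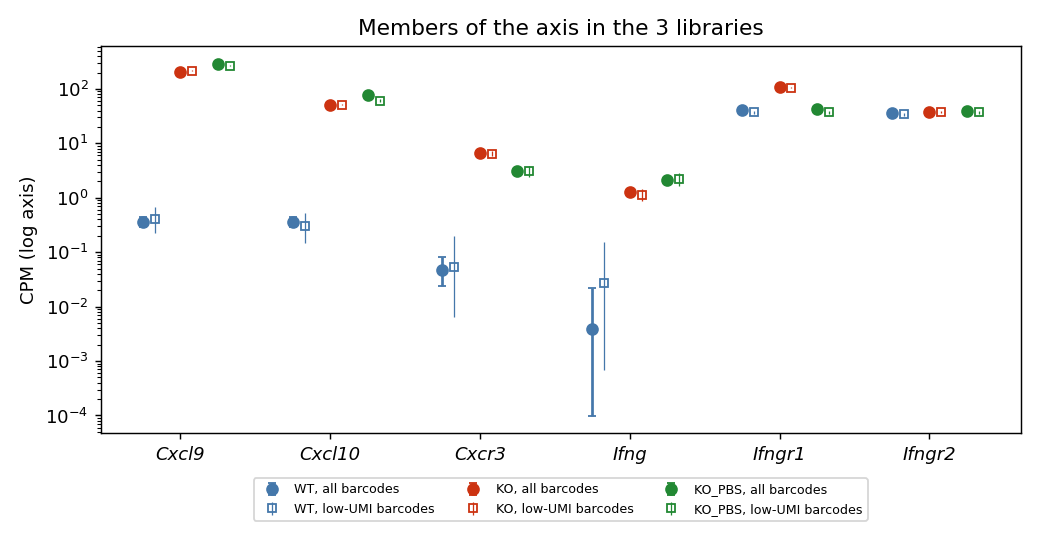
Level of each gene of the axis in WT (blue), KO (red) and KO_PBS (green), in CPM on a log axis. Filled circles are all barcodes and open squares the 25% of barcodes with the fewest UMIs, with exact 95% counting intervals. Cxcl9, Cxcl10, Cxcr3 and Ifng were far lower in WT, Ifngr1 was highest in KO, and Ifngr2 was level in CPM.

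Between KO and WT, 5 of the 6 genes were counted as higher, all but Ifngr2, beside 20.6% of the 20252 genes compared. None was counted as lower, beside 8.63%. Between KO_PBS and KO, Cxcr3 and Ifngr1 were counted as lower, beside 4.70% of 22416 genes, and none as higher, beside 39.9%. Between KO_PBS and WT, Cxcl9, Cxcl10, Cxcr3 and Ifng were counted as higher, beside 57.0% of 22138 genes, and none as lower, beside 4.06%. On the scale of the median gene, given next, the shares of all genes counted as higher and as lower were 14.8% and 12.9% between KO and WT, 29.8% and 12.9% between KO_PBS and KO, and 29.6% and 23.1% between KO_PBS and WT. Each library enters 2 of these comparisons, so they are not independent.

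The direction between the knockout libraries depended on the scale for the ligands and for Ifngr2. In CPM Cxcl9 was 1.43-fold (1.41 to 1.44), Cxcl10 1.49-fold (1.46 to 1.53) and Ifng 1.67-fold (1.45 to 1.91) higher in KO_PBS than in KO, all under the ratio of 2. The median gene was itself 0.63 higher in KO_PBS on the log2 scale. Against that median the log2 difference was -0.12 for Cxcl9, -0.05 for Cxcl10 and 0.11 for Ifng. Their ratios lay above those of 45.9%, 48.2% and 53.5% of all genes, in the middle of the distribution. With median-of-ratios size factors all 3 were negative, at -0.43, -0.36 and -0.20. Ifngr2 turned too, from 0.06 in CPM to -0.57 against the median gene and -0.88 with median-of-ratios factors, and was counted in none of them. Cxcr3 and Ifngr1 were lower in KO_PBS under each of the scalings and barcode sets run, from -1.12 to -2.07 and from -1.31 to -2.32.

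Against WT the median gene was 1.27 higher in KO_PBS, and there the receptor chains moved with the scale too. Ifngr1 was 1.02-fold and Ifngr2 1.09-fold the WT level in CPM. Their log2 differences were -1.23 and -1.15 against the median gene, where both were counted as lower, beside 23.1% of all genes. Between KO and WT the median shift was 0.24, and all 5 genes counted as higher remained so under each scaling.

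**Figure D2:**
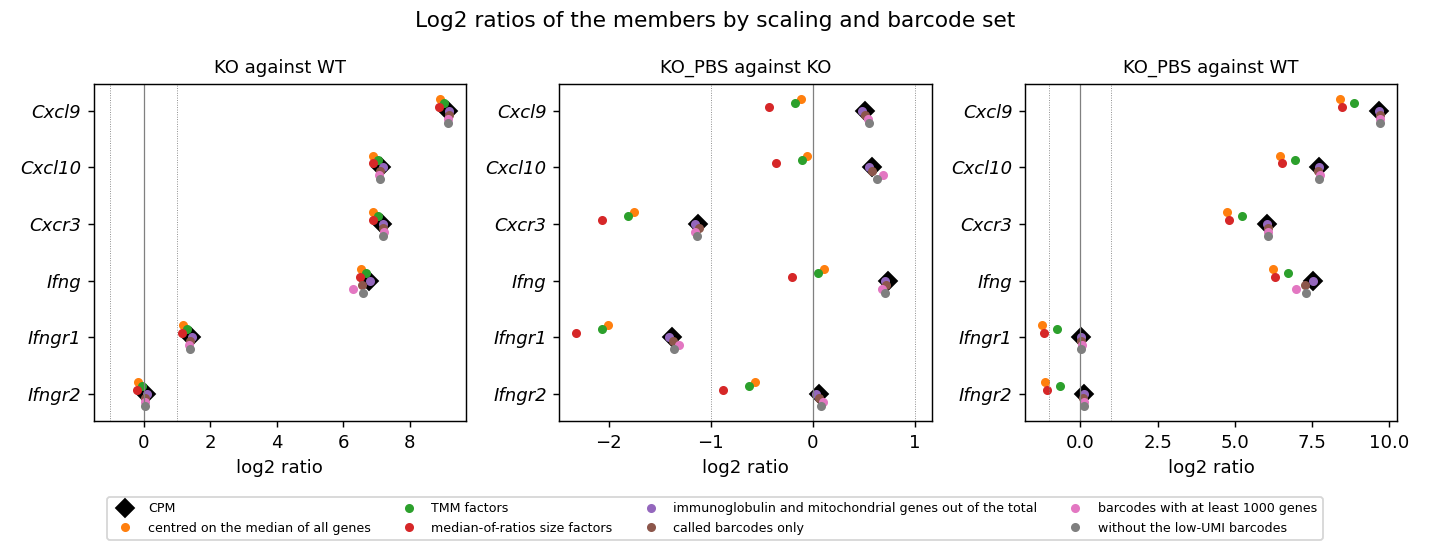
Log2 ratio of each gene between libraries, with 1 panel per comparison; black diamonds are CPM, coloured circles the other scalings and barcode sets, and dotted lines the ratio of 2. Counts under 3 were set to 3, which affects Ifng in WT. The circles gather around the diamonds for KO against WT, while between KO_PBS and KO those of Cxcl9 and Cxcl10 fall on both sides of 0.

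The axis RNA was not confined to a few barcodes in the knockout libraries. Cxcl9 had at least 1 UMI in 84 barcodes of WT (0.0870%), in 44.7% of KO and in 34.1% of KO_PBS. With every barcode thinned to 1000 UMIs the shares were 0.0301%, 18.3% and 24.97%, so the order of the knockout libraries turned with depth. This left out 265, 226 and 16860 shallower barcodes. The 25% of barcodes with the fewest UMIs (medians 1571, 2002 and 976) held Cxcl9 at 0.407, 216 and 265 CPM, beside 0.359, 203 and 290 in the whole libraries. Cxcl10 was at 51.6 there in KO, near its library level, and at 61.1 (58.1 to 64.1) in KO_PBS, below the library's 76.2 (74.9 to 77.5). Ifngr1 was at 37.3, 106 and 37.5 in the 3 libraries, each below the whole library. Free RNA in droplets was not measured separately, and its part in these shares was not tested.

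Barcodes with 3 or more Cxcl9 UMIs numbered 2 in WT, 4975 in KO (4.65%, 4.52 to 4.78) and 2139 in KO_PBS (1.87%, 1.79 to 1.95). If the Cxcl9 UMIs of a library fell on its barcodes in proportion to their depth alone, 4126 would reach 3 in KO and 1745 in KO_PBS. Most of the set is thus the number that depth gives. The share above that grew with the threshold. At 5 or more UMIs there were 523 barcodes in KO beside 223 by depth, and 223 in KO_PBS beside 74.6. At 10 or more there were 14 beside 0.317, and 27 beside 1.24. The barcode with most Cxcl9 held 21 UMIs in KO and 38 in KO_PBS, and 5 in WT.

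**Figure D3:**
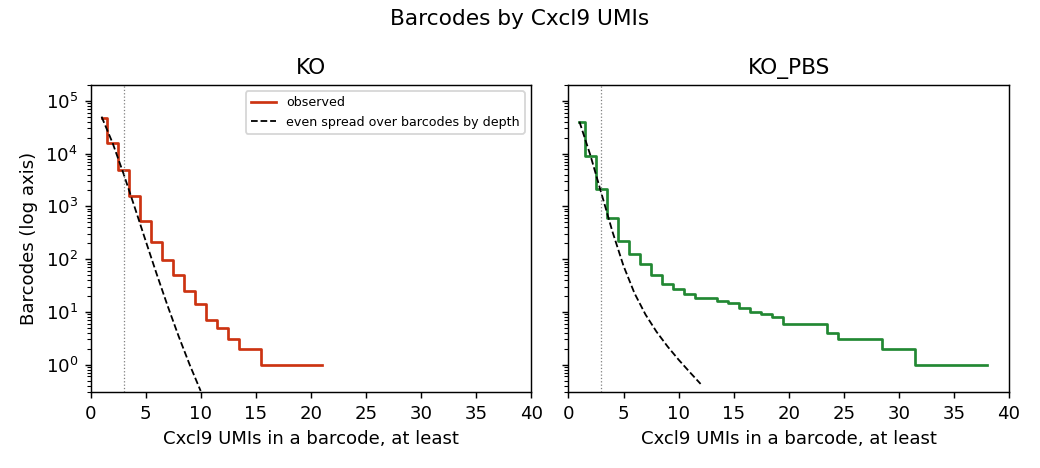
Number of barcodes (log axis) that held at least a given number of Cxcl9 UMIs in KO and KO_PBS; the dashed line is the number given by depth alone and the dotted line marks 3 UMIs. At 3 UMIs observed and dashed lines lie close together, and beyond 5 the observed lines run above them, as far as 38 UMIs in KO_PBS.

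The lineage genes of these barcodes were read from marker lists of 19 cell types. In KO the barcodes with 3 or more Cxcl9 UMIs differed little from all barcodes. Summed NK cell markers had the highest ratio to the whole library, 1.19 (1.12 to 1.26). In the whole KO library Gzma and Klrk1 held 7700 and 3691 of that list's 14052 UMIs, and Ncr1 held 677. Gzma is also among the effector lymphocyte genes below, so the barcodes are not called NK cells. The ratio was 1.16 for T cells, 1.15 for vascular endothelium, 1.12 for macrophages and for keratocytes, the collagen-making cells of the stroma, and 1.09 for dendritic cells. Corneal epithelium was at 0.960 and photoreceptors at 0.949.

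Higher thresholds moved KO modestly. At 5 or more Cxcl9 UMIs the T cell ratio was 1.35 (1.27 to 1.45), that of vascular endothelium 1.30 (1.18 to 1.43) and that of macrophages 1.23 (1.19 to 1.27). In the 14 barcodes with 10 or more, dendritic cell markers were at 2.79 (1.44 to 4.87, from 12 UMIs) and vascular endothelial markers at 2.67 (1.61 to 4.18, from 19 UMIs). Of these 14 barcodes, 2 were rich in vascular endothelial markers and 1 in dendritic cell markers.

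In KO_PBS the myeloid and T cell lists stood out more. At 3 or more Cxcl9 UMIs the ratio was 1.99 for neutrophils (1.67 to 2.35), 1.45 for dendritic cells (1.33 to 1.57), 1.30 for T cells and 1.29 for macrophages. At 5 or more it was 3.14 for neutrophils, 2.09 for dendritic cells (1.74 to 2.49), 1.82 for macrophages (1.72 to 1.92) and 1.65 for T cells. The neutrophil value rests on Csf3r, a receptor that macrophages also carry, with 31 of the 33 UMIs. Cxcr2, Retnlg, Ly6g and Mmp8 had 0 UMIs there, so the barcodes are not called neutrophils.

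Some single genes of the lists were read in KO_PBS at 5 or more Cxcl9 UMIs, set against barcodes with none. They do not stand for the whole lists. In the KO_PBS library C1qa, not given here, held 71597 of the 158924 UMIs of the macrophage list. Fscn1, also not given, held 5238 of the 13996 of the dendritic cell list. The set held 761135 UMIs of all genes, so the low levels rest on few UMIs, and no intervals are given. Of the macrophage genes, Adgre1 (F4/80) was at 55.2 beside 16.8, Mertk at 65.7 beside 23.0 and Csf1r, the receptor of the macrophage growth factor, at 114 beside 41.1. F13a1, at 18.4 beside 17.9, and Cd163, at 7.88 beside 8.40, were close to the other barcodes. Of the dendritic cell genes, Ccl22 was at 15.8 beside 4.76, Xcr1 at 18.4 beside 6.20 and Batf3 at 18.4 beside 6.77. Corneal epithelial markers had a ratio of 0.637 (0.624 to 0.651) and lens markers 0.579 (0.559 to 0.599). In the 27 barcodes with 10 or more the ratio was 2.86 for dendritic cells, 2.19 for T cells and 1.99 for macrophages, and photoreceptor markers were at 0.290 (0.231 to 0.359).

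**Figure D4:**
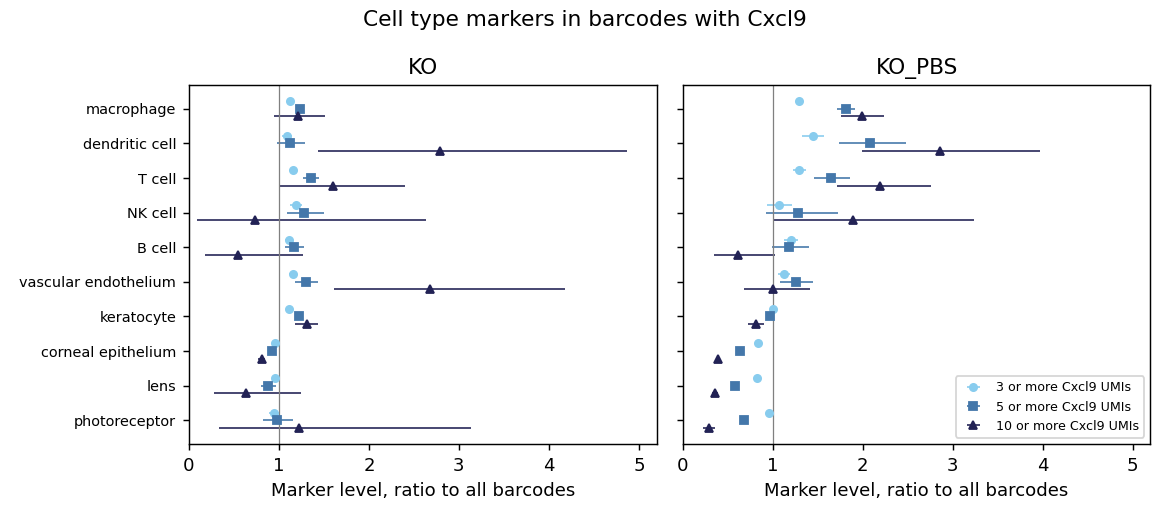
Summed marker level of 10 cell types in barcodes with 3, 5 or 10 or more Cxcl9 UMIs, as a ratio to all barcodes of the library, with 95% counting intervals. In KO most points lie near 1, and in KO_PBS macrophage, dendritic cell and T cell markers lie above 1 and epithelial, lens and photoreceptor markers below it.

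The threshold of 3 did not part distinct groups of barcodes. In KO, macrophage markers were at 947 CPM in the 11078 barcodes with exactly 2 Cxcl9 UMIs and at 988 in the 3379 with exactly 3. In KO_PBS they were at 904 in 7054 barcodes and 1035 in 1550. Of the 2 barcodes of WT, 1 was rich in keratocyte markers. The other, with 3 Cxcl9 UMIs, held keratocyte markers at 2968 CPM, beside 1435 in the library. With only 2 barcodes, no lineage is read from them.

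Cxcl10 was higher in barcodes that held more Cxcl9. In KO it was at 46.8 CPM in barcodes without Cxcl9, 69.1 in those with 3 or more, 85.7 at 5 or more and 263 at 10 or more. In KO_PBS it was at 70.0, 185, 487 and 1021 in the same order. Ifngr1 was at 110 and 115 in KO barcodes with none and with 5 or more Cxcl9 UMIs, and at 42.0 and 65.7 in KO_PBS. At 10 or more it was at 205 in KO (112 to 343, from 14 UMIs) and 70.6 in KO_PBS (35.3 to 126, from 11 UMIs). Deeper barcodes reach a threshold more easily, and the median depth of the sets with 3 or more was 4116 UMIs in KO and 1951 in KO_PBS.

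The genes most like Cxcl9 were ranked by the ratio of their level in barcodes with 3 or more Cxcl9 UMIs to that in barcodes with none, among genes with 50 or more UMIs in the former. Genes of few UMIs could pass that minimum only where they were high, so the ranking is a description. In KO the 10 highest of 13210 genes had ratios from 1.65 to 1.85 and began with Map6, Gm43388 and Dnhd1, at 64, 59 and 79 UMIs. In KO_PBS the 10 highest of 11044 genes had ratios from 2.50 to 3.27. They were Gm17268, Gm2245, Aoah, Apol6, Gbp5, Dram1, Pik3ap1, Cxcl10, Ccl22 and Gsap. Gbp5, an interferon-induced GTPase, was at 126 beside 44.4 CPM, and Cxcl10 was 8th with a ratio of 2.65. Ranked at 5 or more Cxcl9 UMIs in KO_PBS, Cxcl10 was first with a ratio of 6.96, followed by Vcam1, an adhesion molecule for leukocytes, with 5.81. The same ranking in KO began with Ccbe1 (2.36), Ubd (2.33) and Hbb-bt (2.27). Cxcl10 was among the 10 highest of KO at neither threshold, with ratios of 1.48 at 3 or more and 1.83 at 5 or more.

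Levels were next read in barcodes rich in the markers of a single cell type, that is with at least 3 markers and 5 marker UMIs and at least 5 times the number expected at their depth. None of the 6 genes is in a marker list. These barcodes are few, and 95.6% of the barcodes with 3 or more Cxcl9 UMIs in KO and 92.2% in KO_PBS fell in no class. No barcode of any library passed for corneal epithelium, so that cell type is not read here. The expected number is taken from each library, so a class of the same name can hold unlike barcodes. Keratocytes, for example, had 1483 barcodes in WT and 51 in KO. In KO, Cxcl9 was at 370 CPM (304 to 446) in 113 macrophage-marker-rich barcodes, 286 (248 to 328) in 123 of vascular endothelium and 264 (238 to 292) in 334 of T cells. It was at 222 (190 to 258) in 199 photoreceptor-marker-rich barcodes, a cell type outside the cornea, and at 172 (153 to 192) in 432 of plasma cells. The library level was 203. In 9 dendritic-cell-marker-rich barcodes the level was 394 (250 to 591).

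In KO_PBS the spread was wider. Cxcl9 was at 679 (603 to 762) in 269 macrophage-marker-rich barcodes, 493 (434 to 558) in 190 of T cells and 374 (296 to 466) in 77 of B cells. It was at 287 (246 to 332) in 227 of vascular endothelium, 222 (194 to 252) in 472 of photoreceptors and 220 (198 to 244) in 651 of corneal endothelium, the inner layer of the cornea. In 19 dendritic-cell-marker-rich barcodes it was at 675 (511 to 875). In 7 of keratocytes it was at 2086, from 26 UMIs of which 19 lay in 1 barcode. Thinned to 1000 UMIs, 42.9% of macrophage-marker-rich barcodes held Cxcl9 (36.5 to 49.5), beside 20.7% of photoreceptor-marker-rich ones (17.0 to 24.9). Their median depths were 1345 and 1821 UMIs, and the unthinned shares 50.2% and 36.9%, beside 60.0% for T cells. The thinned intervals of T cells (33.7%, 27.0 to 40.9) and lymphatic endothelium (28.0%, 12.1 to 49.4) overlapped that of macrophages. In KO, thinned in the same way, 28 of 112 macrophage-marker-rich barcodes held it (17.3% to 34.1%), beside 37 of 198 photoreceptor-marker-rich ones (18.7%, 13.5 to 24.8). The intervals overlapped, and T cells (24.9%), vascular endothelium (23.6%), keratocytes (23.5%) and B cells (23.3%) lay in the same range, so macrophages did not stand apart there. The macrophage class was sensitive to its definition: at 10 times the expected number it had only 3 barcodes in KO and 5 in KO_PBS. The T cell class then had 24 and 130 barcodes, with Cxcl9 at 278 and 514. Among classes of at least 20 barcodes the highest Cxcl9 level was then that of vascular endothelium in KO (296) and of T cells in KO_PBS. In WT the few Cxcl9 UMIs lay partly in these classes. There were 4 in 117 macrophage-marker-rich barcodes (6.50 CPM, 1.77 to 16.6) and 10 in 1483 of keratocytes (2.18 CPM, 1.05 to 4.01), beside 0.359 in the library. The 10 lay in 6 barcodes, 5 of them in 1 barcode, and the interval does not cover such clustering. Under the stricter rule Cxcl9 in WT was at 0 in 310 keratocyte-marker-rich barcodes and at 8.19 in 89 of macrophages.

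Cxcl10 in KO_PBS was at 152 (120 to 190) in T-cell-marker-rich barcodes, 136 (109 to 168) in those of vascular endothelium and 121 (90.3 to 159) in those of macrophages. It was at 45.9 (33.9 to 60.9) in those of photoreceptors, below the library level of 76.2. Vascular endothelium was thus above the library level for Cxcl10 and at it for Cxcl9. In KO all these classes lay between 50.1 and 60.0, near the library level of 51.1.

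**Figure D5:**
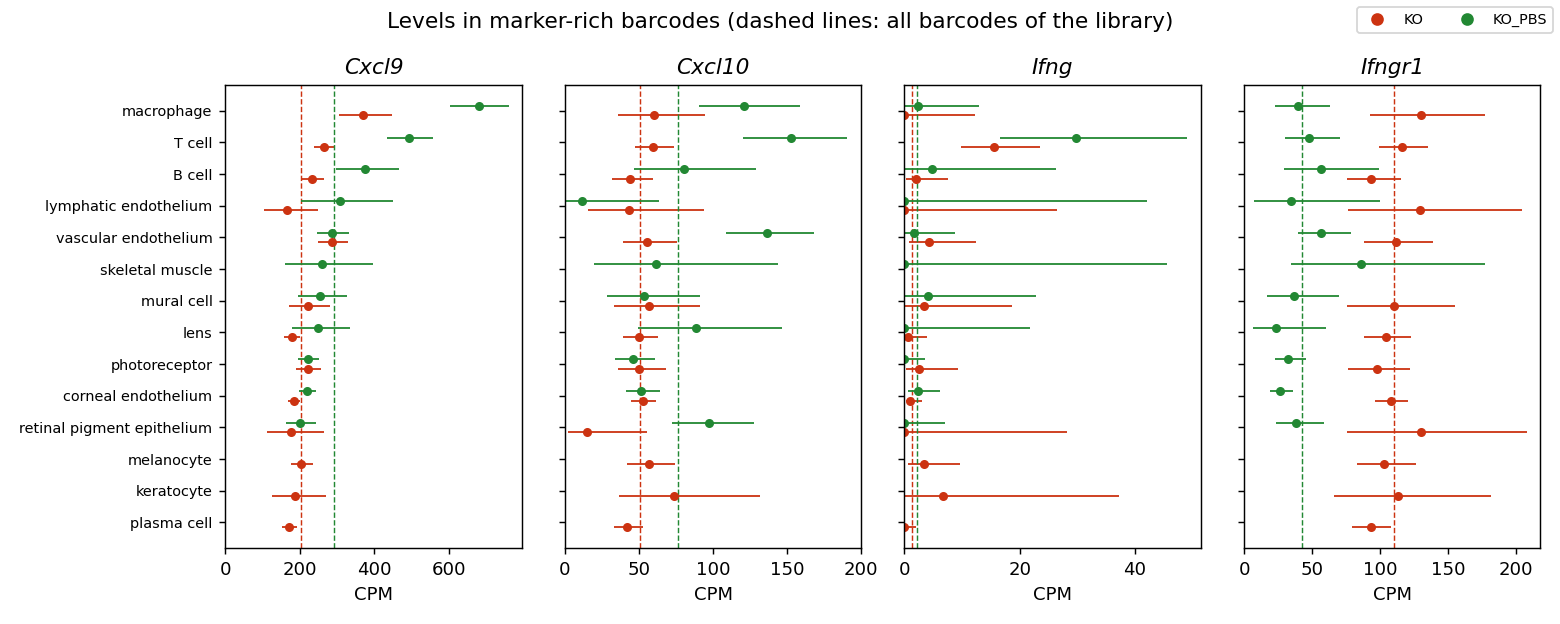
Levels of Cxcl9, Cxcl10, Ifng and Ifngr1 in CPM in barcodes rich in the markers of 1 cell type, in KO (red) and KO_PBS (green), for classes of at least 20 barcodes, with exact 95% counting intervals; dashed lines are the whole libraries. Cxcl9 was highest in macrophage-marker-rich barcodes, which a stricter marker rule nearly empties, and Ifng in T-cell-marker-rich ones, while in KO_PBS Ifngr1 ran from 23.6 (lens) to 86.3 (skeletal muscle) around the library's 42.4, with only the corneal endothelial interval (19.5 to 36.0) apart from it.

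Ifng, the product of T and NK cells, had more UMIs in barcodes rich in T cell markers than their library levels give, but from few barcodes. It was at 15.5 CPM (9.74 to 23.5, from 22 UMIs) in T-cell-marker-rich barcodes of KO and at 29.7 (16.6 to 49.0, from 15 UMIs) in those of KO_PBS, beside 1.29 and 2.15 in the libraries. The 22 UMIs of KO lay in 5 of 334 barcodes (1.497%), beside 2.44% of vascular-endothelial-marker-rich barcodes, and the intervals do not cover such clustering. The 15 UMIs of KO_PBS lay in 10 of 190 barcodes (5.26%), beside 4 of 651 corneal-endothelial-marker-rich ones (0.614%), with median depths of 2463.5 and 2174 UMIs. Thinned to 1000 UMIs, 3 of 334 T-cell-marker-rich barcodes of KO held the gene (0.898%), beside 0.813% of the vascular ones. In KO_PBS 2 of 190 did (1.05%), beside 0.644% of corneal-endothelial-marker-rich and 1.30% of B-cell-marker-rich ones. These thinned counts are too few to order the classes. In KO, 4 barcodes held 5 or more Ifng UMIs, together 28 of the 453. T cell markers were 6.90 times the library level in these 4, and 3 of them were T-cell-marker-rich. In KO_PBS, 7 barcodes held 2 or more Ifng UMIs, beside 0.776 by depth, with T cell markers at 6.81 times the library level. Most Ifng UMIs lay singly in other barcodes: 420 barcodes of KO held the gene, beside 452 by depth.

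Cxcr3 was at 14.1 (8.63 to 21.8, from 20 UMIs) in T-cell-marker-rich barcodes of KO and at 17.8 (8.15 to 33.8, from 9 UMIs) in those of KO_PBS, beside 6.68 and 3.06 in the libraries. In KO it was also at 11.5 (5.73 to 20.5) in B-cell-marker-rich and 12.7 (5.83 to 24.2) in vascular-endothelial-marker-rich barcodes, so no class stood apart there. In KO_PBS it was at 14.2 (2.93 to 41.5, from 3 UMIs) in B-cell-marker-rich barcodes, 2.87 (0.592 to 8.39) in those of photoreceptors and 0.609 (0.0154 to 3.39) in those of corneal endothelium. Over all barcodes with a UMI of the gene, T cell markers were at 1.14 times the library level in KO and 1.68 times in KO_PBS, beside 1.30 and 1.72 for Ifng. In KO, 40 barcodes held 2 or more Cxcr3 UMIs, beside 29.9 by depth.

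The high Ifngr1 level of KO was seen across most of the classes read. It was at 130 (92.5 to 178) in macrophage-marker-rich barcodes, 117 (99.5 to 136) in those of T cells, 112 (88.6 to 139) in those of vascular endothelium, 108 (96.5 to 121) in those of corneal endothelium and 97.6 (76.9 to 122) in those of photoreceptors. In KO_PBS the same classes were at 39.5, 47.5, 57.0, 26.8 and 32.5. In WT, macrophage-marker-rich barcodes were at 65.0 (46.4 to 88.5), above the library level of 41.4, and photoreceptor-marker-rich ones at 49.0 (38.1 to 62.0). Intervals of KO and KO_PBS overlapped in B-cell-marker-rich barcodes (75.5 to 115 and 29.3 to 99.1) and in those of lymphatic endothelium (76.7 to 204 and 7.06 to 100.1). Among classes of at least 20 barcodes in both, intervals of KO and WT overlapped in mural cells (76.2 to 155 and 40.4 to 108). They also did so in retinal pigment epithelium (75.7 to 208 and 36.7 to 97.8).

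Genes around the axis were read from lists chosen by function, with the number that passed the same rule of size. Among 12 genes that induce interferon gamma, 10 passed as higher in KO against WT, beside 20.6% of all genes, and none as lower. Their median log2 difference was 3.64, beside 0.24 over all genes. Runx3, a transcription factor of cytotoxic lymphocytes, was at 14.0 beside 0.445 CPM (31.4-fold). Stat4, which carries the interleukin 12 signal, was at 18.6 beside 0.696 (26.8-fold), and Il18r1, the interleukin 18 receptor, at 16.4 beside 4.01 (4.10-fold). Il18 itself was at 54.9 beside 85.6 and was not counted. Between KO_PBS and KO only Il12a and Il12b of this list were counted, at 2.26-fold and 2.02-fold from low levels, beside 39.9% of all genes, and neither against the median gene, and both are named after their values were seen. Against the median gene Stat4 was counted as lower there, at -1.55 on the log2 scale, beside 12.9% of all genes. Against WT, 10 were higher in KO_PBS, beside 57.0% of all genes, and none lower, among them Runx3 (26.5-fold) and Il18r1 (3.49-fold). Against the median gene 9 were higher, without Il18r1, beside 29.6% of all genes. There Il18 and Il27, another cytokine that induces interferon gamma, were lower, at -2.10 and -1.66, beside 23.1% of all genes.

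Of 10 genes below the receptor, 7 passed as higher in KO against WT, beside 20.6% of all genes, and none as lower, and 6 did so against the median gene, beside 14.8%. Ciita, the switch of MHC class II genes, was at 23.7 beside 0.649 (36.6-fold). Irf8, a transcription factor of myeloid cells, was at 45.2 beside 2.33 (19.4-fold), and the feedback inhibitor Socs3 at 23.1 beside 1.77 (13.02-fold). Jak1, Irf1 and Ptpn2 had ratios of 1.48, 1.86 and 1.70. None of the 10 passed between KO_PBS and KO, beside 39.9% of all genes higher and 4.70% lower. Against the median gene Jak1, Jak2 and Socs1 were lower there, beside 12.9%. Against WT, 8 were higher in KO_PBS, beside 57.0% of all genes, among them Ciita (51.6-fold), Irf8 (38.5-fold) and Socs3 (12.7-fold). Against the median gene 4 were higher and 1 lower, beside 29.6% and 23.1% of all genes.

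All 12 effector lymphocyte genes passed as higher in KO against WT, beside 20.6% of all genes. Their median log2 difference was 5.65. Ccl5 was at 220 beside 1.41 (155-fold), Nkg7 at 14.6 beside 0.133 (110-fold) and the granzyme Gzma at 21.9 beside 0.277 (79.0-fold). Between KO_PBS and KO 2 were counted, Prf1 (perforin, 2.26-fold) and the chemokine Xcl1 (2.03-fold), both higher, beside 39.9% of all genes, both named after their values were seen and neither counted against the median gene. Against the median gene none was higher and 4 were lower, beside 12.9% of all genes: Gzmb (granzyme B), at -1.30 on the log2 scale, Fasl at -1.29, Klrd1 at -1.18 and Ccl5 at -1.14. The list's median in CPM was -0.03, beside 0.63 over all genes. All 12 were higher in KO_PBS than in WT, beside 57.0% of all genes and in either scale, among them Nkg7 (179-fold), Ccl5 (109-fold) and Gzma (75.7-fold).

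Of the other CXCR3 ligands, Pf4, a platelet and macrophage chemokine, was at 5.00, 17.1 and 10.9 in WT, KO and KO_PBS. It was counted as higher in KO than in WT (3.42-fold), beside 20.6% of all genes. In KO_PBS it was counted as higher than in WT (2.18-fold), beside 57.0% of all genes, but not against the median gene. On that scale it was counted as lower in KO_PBS than in KO, beside 12.9%. Dpp4, a protease that clips CXCR3 ligands, was at 9.10, 12.7 and 30.9. It was counted as higher in KO_PBS than in KO (2.44-fold), beside 39.9% of all genes, and than in WT (3.40-fold), beside 57.0%. Neither was counted against the median gene. Cxcl11 was not analysed here.

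The receptors of the type I interferons passed in no comparison. The level of Ifnar1 was 15.3 CPM in WT, 24.0 in KO and 25.8 in KO_PBS, and Ifnar2 at 20.9, 39.8 and 32.5. In KO they were 1.57-fold and 1.90-fold the WT level. Ifnb1, an interferon of the type I family, had 1, 7 and 35 UMIs, too few for the rule. In the list of 7, the only gene counted in any comparison was Ifnl3, with 20 UMIs in KO and 30 in KO_PBS, beside 39.9% of all genes, named after its values were seen and not counted against the median gene.

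The 12 other inflammatory chemokines on the list all passed as higher in KO against WT, beside 20.6% of all genes. The monocyte chemokine Ccl8 was at 483 beside 4.08 (118-fold), the B cell chemokine Cxcl13 at 55.6 beside 0.473 (118-fold), Ccl7 at 23.3 beside 0.340 (68.4-fold) and the T cell zone chemokine Ccl19 at 85.5 beside 1.47 (58.0-fold). Between KO_PBS and KO, 3 were lower, beside 4.70% of all genes: Ccl19 at 3.31 beside 85.5 (25.9-fold lower), Cxcl5, a neutrophil chemokine, at 2.68 beside 10.2 (3.79-fold lower) and Cxcl14 at 20.3 beside 42.6 (2.10-fold lower). There were 6 lower against the median gene, beside 12.9% of all genes, with Cxcl1, Ccl7 and Ccl8 in addition. Against WT all 12 were higher in KO_PBS, beside 57.0% of all genes, led by Cxcl13 (98.1-fold), Ccl8 (64.1-fold), Ccl2 (39.3-fold) and Ccl7 (36.3-fold), and 9 were so against the median gene, beside 29.6%.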

How the data were processed

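Nuclei of 3 whole-cornea libraries were profiled with a droplet 3′ kit, per the labels' protocols. What the authors deposited are raw UMI counts, as whole numbers for each gene in each barcode. Per the file headers Cell Ranger 7.0.1 made them, and the build was mm10, per the submitters' processing notes. The barcode filter, the annotation and the treatment of intronic reads are not given in the sources used here. Every deposited barcode was used, and doublets were neither called nor removed. Levels (CPM) are summed UMIs scaled to 1000000 over the 30406 Ensembl IDs of all 3 gene lists, which held 99.6%, 99.6% and 99.3% of the UMIs in WT, KO and KO_PBS. All columns belonged to a sample.

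With 1 library per group a rule of size replaced a test: 50 or more UMIs over the pair of libraries, a ratio of 2 or more with counts under 3 set to 3, and exact 95% Poisson intervals that were apart. Only counting error is covered. Alternatives of scale were centring on the median of all genes, TMM factors (edgeR 4.0.16 in R 4.3.3), median-of-ratios factors, and totals without immunoglobulin and mitochondrial genes. Other ratios, no UMI minimum and 3 other barcode sets were also run. The sets were barcodes with at least 1000 genes, all but the 25% with the fewest UMIs, and called barcodes. Called barcodes had at least 500 genes, at most 5% mitochondrial UMIs and a minimum depth. That minimum was 10% of the 99th percentile of UMIs among the 10000 deepest barcodes of the library. Of the 25% of barcodes with the fewest UMIs, 0%, 97.0% and 80.4% were called in WT, KO and KO_PBS.

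The number of barcodes given by depth alone is a Poisson expectation. The rule for marker-rich barcodes (at least 3 markers, 5 marker UMIs and 5 times the expected number, in 1 class only) was chosen after the data were seen. Barcodes rich in markers of more than 1 class were kept apart. Named genes are the 6 members, at most 4 genes per list and comparison that passed the rule at 10 CPM or more, in order of ratio, and the 10 genes most like Cxcl9 in each library. Some genes that this rule names are not reported here. Members, gene lists and marker lists were chosen with earlier results of these data known. Gene positions are from GENCODE on GRCm38. The code was tested on simulated data; python 3.11.15, numpy 2.4.6 and scipy 1.17.1 were used.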

Additional observations from a re-analysis of the deposited data

How the results depend on the processing

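No paired analysis was possible because each group has 1 library, and no replicate could be left out. At a ratio of 4 no gene of the axis was counted between KO_PBS and KO, against 2 at a ratio of 2. Of all 22416 genes, 5853 were higher and 459 lower at that ratio. Between KO and WT, Ifngr1 was no longer counted at a ratio of 4, where 1620 of all 20252 genes were higher. At a ratio of 1.5 Ifng was also counted as higher in KO_PBS than in KO, beside 11418 of 22416 genes. The number of barcodes above the Cxcl9 threshold followed that threshold. At 2, 5 and 10 UMIs in place of 3 WT had 4, 1 and 0, KO had 16053, 523 and 14, and KO_PBS had 9193, 223 and 27. After thinning to 1000 UMIs it was 0, 267 and 516 at 3 UMIs. The highest marker ratio went from 1.19 (NK cells) in KO to 1.35 (T cells) at 5 UMIs and 2.79 (dendritic cells) at 10. In KO_PBS it went from 1.99 (neutrophils) to 3.14 (neutrophils) and 2.86 (dendritic cells). The other 39 alternative values of these counts and marker ratios lay within 1.5 times or within counting error, which is wide for few barcodes. Among them the highest marker ratio of WT was 6.33 in the 2 barcodes at 3 UMIs and 19.4 in the 1 barcode at 5. The 39 also include 6 genes counted between KO_PBS and WT, against 4, under centring on the median gene and under median-of-ratios factors. Ifngr1 and Ifngr2 were then lower. Of all 22138 genes, 6558 were higher and 5106 lower under centring, and 6845 and 4754 under median-of-ratios factors. Of the alternative values of single genes and classes, 94 stayed within counting error and 56 moved beyond it or to another class. Under the stricter marker rule the class with the highest Cxcl9 level went from macrophages to vascular endothelium in KO (370 to 296) and to T cells in KO_PBS (679 to 514). Few UMIs limit the ratios to WT of Ifng (1 UMI there) and Cxcr3 (12). A group effect and a library effect cannot be told apart.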
